A study of Mus musculus with 8 samples.

Results

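The 10 genes described here encode the transcription factors ATF4, ATF5, CHOP (gene Ddit3), ATF3 and C/EBP beta, gamma and delta (Cebpb, Cebpg and Cebpd) and 3 stress-induced proteins that act beside them, TRIB3, CHAC1 and NUPR1. They were followed in TTE3, a line of Sertoli cells, the cells of the testis that nurse the germ cells. TTE3 comes from mice with a transgene for the large T antigen of simian virus 40 in a temperature-sensitive form. The cells were sampled during exposure to 0.2 mM bisphenol A (BPA), a building block of polycarbonate and epoxy plastics. The groups were 0, 3, 6 and 12 h of BPA, with 2 one-colour Affymetrix Mouse Expression 430A arrays per time, 8 arrays in all. The 10 genes were read by all 18 probe sets annotated with exactly 1 of their symbols, out of 22690 probe sets on the array, and they were 10 of 12393 genes. All 10 genes, and 17 of their 18 probe sets, passed the filter on low signals that left 8675 genes and 15838 probe sets for testing. The lowest signal among the 10 gene readings at 0 h was 206.2, above the median signal of every array (150.9 to 170), so none of them passed the filter only through the later times.

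Each time was compared with 0 h and with the other times, which asks which genes respond to BPA and when. Whether arrays of 1 time hold RNA of different cultures is not labelled. The p-values therefore rest on the spread between the samples measured, and that spread may be technical. Arrays of cells without BPA at 3, 6 or 12 h were not used here, so BPA and time in culture cannot be told apart. The RNA came from whole cultures, so a change in the share of cells holding a transcript and a change in its amount per cell cannot be told apart either.

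These genes belong to the integrated stress response. When an eIF2 kinase (PERK in endoplasmic reticulum stress, GCN2 in amino acid shortage, HRI in haem shortage, PKR in viral infection) phosphorylates the initiation factor eIF2, most translation slows while the ATF4 and ATF5 mRNAs are translated better. ATF4 pairs with C/EBP proteins at composite C/EBP-ATF response elements and switches on genes of amino acid supply as well as further regulators such as CHOP, ATF3 and TRIB3. Part of this control acts on translation and protein stability, which an array of mRNA does not measure.

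The sequences just upstream of the members were searched for such elements. RefSeq promoter sequences (build GRCm38.p6) were found for 9 of the 10 genes, with 2 start sites for Atf5. The 250 bases before each start were searched on both strands for 3 motifs: the C/EBP-ATF response element TGATGNAA, the cAMP response element TGACGTCA and the AP-1 site TGANTCA. The 4 sequences with a match are printed in the direction of the gene, 5′ to 3′, with the match in capitals. In the first 3 of them the capitals TTGCATCA are the C/EBP-ATF response element read on the opposite strand, and in Ddit3 the capitals are the AP-1 site.
Atf3 promoter (chr1:191183334-191183583, minus strand): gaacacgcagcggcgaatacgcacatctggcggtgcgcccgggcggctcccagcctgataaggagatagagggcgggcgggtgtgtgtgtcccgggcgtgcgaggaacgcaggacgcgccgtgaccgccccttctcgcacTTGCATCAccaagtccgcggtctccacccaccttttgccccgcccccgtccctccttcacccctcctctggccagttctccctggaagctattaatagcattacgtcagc
Nupr1 promoter (chr7:126625471-126625720, minus strand): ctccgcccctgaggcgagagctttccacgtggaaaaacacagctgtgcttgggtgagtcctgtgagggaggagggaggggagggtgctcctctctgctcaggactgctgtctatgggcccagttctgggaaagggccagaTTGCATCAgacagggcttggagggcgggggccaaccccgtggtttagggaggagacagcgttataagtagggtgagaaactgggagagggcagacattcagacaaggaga
Chac1 promoter (chr2:119350992-119351241, plus strand): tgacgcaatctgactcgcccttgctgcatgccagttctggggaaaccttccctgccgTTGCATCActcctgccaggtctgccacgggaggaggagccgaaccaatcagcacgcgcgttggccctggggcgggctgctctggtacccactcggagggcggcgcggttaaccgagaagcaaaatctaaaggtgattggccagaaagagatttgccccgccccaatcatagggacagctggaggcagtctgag
Ddit3 promoter (chr10:127290543-127290792, plus strand): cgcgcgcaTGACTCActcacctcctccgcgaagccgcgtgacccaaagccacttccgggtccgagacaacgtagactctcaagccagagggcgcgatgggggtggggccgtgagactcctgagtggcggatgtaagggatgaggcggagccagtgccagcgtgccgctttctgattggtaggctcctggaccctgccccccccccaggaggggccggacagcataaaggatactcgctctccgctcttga
The element of Atf3 and that of Nupr1 both lie 110 to 103 bases before the start, and that of Chac1 lies 193 to 186 bases before it. The AP-1 match of Ddit3 lies 242 to 236 bases before the start. TGACGTCA was found in none of the 9 genes, and no match overlapped one of another motif. Among all 32851 promoter windows of the same length, 3.45% held TGATGNAA, 1.55% held TGACGTCA and 6.75% held TGANTCA. A match of letters is a description of the sequence, and binding was not measured. Elements outside these bases or with other letters were not searched for, so a gene without a match may still hold one.

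Signals of the 10 genes are plotted by array and time.

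**Figure D1:**
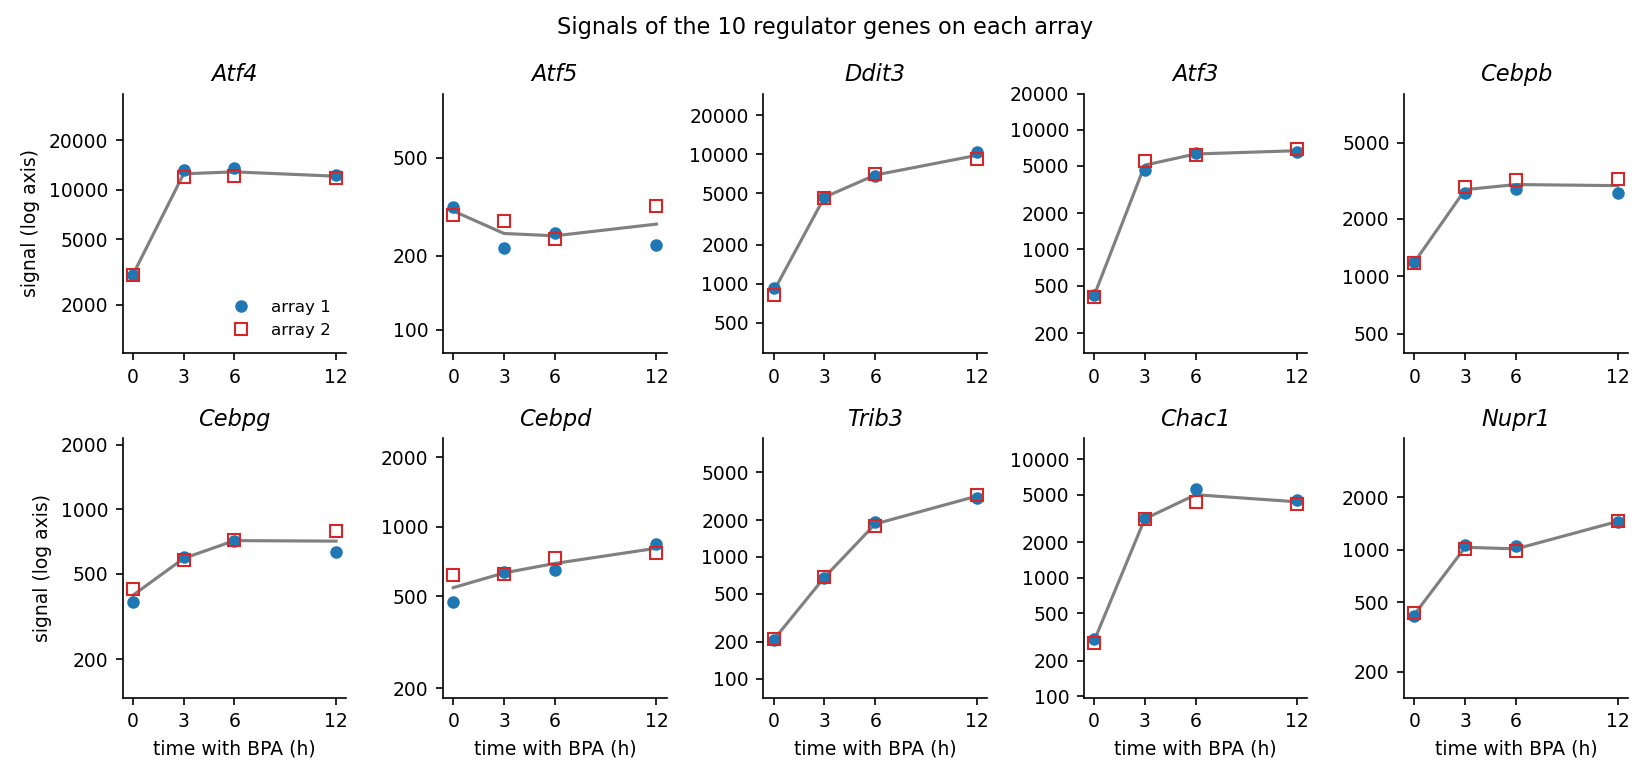
Signal (linear probe set signal on a log axis) against hours of BPA for the 10 genes, each read by the probe set of highest mean signal; filled circles and open squares are the 2 arrays of a time and the line joins their means. Atf3 and Chac1 lie at 3106.9 or above on every array from 3 h on, against 279.7 to 416.6 at 0 h, while Trib3 climbs at each time and the Atf5 panel stays between 215.7 and 317.8.

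Of the 10 genes, 8 were called higher at 3 h, 8 at 6 h and 9 at 12 h (limma, adjusted p under 0.05), and 0 were called lower at any of these times. Over all 8675 genes tested, 8.55% were called higher and 3.53% lower at 3 h, 16.8% and 9.73% at 6 h, and 20.9% and 17.5% at 12 h. In counts this was 742 higher and 306 lower at 3 h and 1455 and 844 at 6 h, and after scaling to equal medians it was 464 and 643 at 3 h and 1058 and 1187 at 6 h. The median log2 change of the 10 genes was 1.47 at 3 h, 1.71 at 6 h and 1.87 at 12 h, beside 0.06, 0.07 and 0.06 over all genes tested. Changes are differences of log2(signal + 7.9), given with their standard error, and are somewhat smaller than the change of the signal itself where signals are low. The members were chosen with earlier results of these data known, so these counts and medians describe them and are no independent test of the pathway.

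Atf4, the activator at the head of the response, was high by 3 h and stayed there. Its signal was 3022.6 and 3038 at 0 h, 13118.5 and 11887.4 at 3 h, 13556.3 and 12138 at 6 h, and 12310.8 and 11862.7 at 12 h. Every array with BPA lay far above both 0 h arrays, and the arrays of the 3 later times overlapped one another. Atf4 rose by 2.04 ± 0.11 at 3 h (log2, SE, n = 2 arrays per time; adjusted p = 4.83e-08), by 2.08 ± 0.11 at 6 h (2.52e-08) and by 1.99 ± 0.11 at 12 h (2.88e-08), or 4.11-, 4.22- and 3.98-fold. Between the later times no change was called: the difference of 12 h over 3 h was -0.05 ± 0.11 (adjusted p = 0.795).

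Atf5, the close relative of ATF4 whose mRNA is also under translational control, was the only member not called at any time. Its signal was 316.4 and 292.6 at 0 h, 215.7 and 277.5 at 3 h, 247.3 and 235.3 at 6 h, and 220.7 and 317.8 at 12 h. Both arrays at 3 h and both at 6 h lay below the 0 h pair, and at 12 h the arrays overlapped those at 0 h. The changes were -0.31 ± 0.20 at 3 h (adjusted p = 0.383), -0.33 ± 0.20 at 6 h (0.271) and -0.19 ± 0.20 at 12 h (0.494), and without the first 12 h array the last of these was 0.06.

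Ddit3 encodes CHOP, a C/EBP family protein induced by ATF4 that pairs with other C/EBP proteins and promotes cell death under lasting stress. Its signal was 934 and 816.6 at 0 h, 4716 and 4605.2 at 3 h, 6738.7 and 7084.6 at 6 h, and 10492.4 and 9116.7 at 12 h. The 4 pairs of arrays did not overlap and stood in the order of time. Ddit3 rose by 2.41 ± 0.11 at 3 h (adjusted p = 1.77e-08), 2.97 ± 0.11 at 6 h (1.37e-09) and 3.47 ± 0.11 at 12 h (4.02e-10), the last an 11.1-fold rise with rank 7 among the 8675 genes. From the 3 h level it rose by a further 1.07 ± 0.11 at 12 h (adjusted p = 3.99e-05).

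Atf3, a bZIP factor that is induced within hours by many stresses and can repress or activate its targets, had the largest 12 h change of the 10 genes. Its signal was 416.6 and 400.7 at 0 h, 4607.4 and 5500.8 at 3 h, 6362.6 and 6159.3 at 6 h, and 6477.3 and 6864.1 at 12 h. The 3 h arrays were already more than 10 times the 0 h arrays, and the later pairs lay a little above them without overlap. Atf3 rose by 3.60 ± 0.11 at 3 h (adjusted p = 2.63e-10), 3.91 ± 0.11 at 6 h (2.36e-10) and 4.003 ± 0.112 at 12 h (2e-10), a 16-fold rise at 12 h that ranked 2 among all genes tested. The further rise of 12 h over 3 h, 0.40 ± 0.11 (adjusted p = 0.0209), was lost without the first 3 h array (0.28, adjusted p = 0.21), either of the 12 h arrays (0.0584 and 0.104) or the intensity trend of the variance model (0.0794).

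Among the C/EBP genes, each read by its probe set of highest signal, the change was largest for Cebpb, smaller for Cebpg and smallest for Cebpd. A second Cebpg probe set, described further on, changed more than this Cebpb probe set at 6 h (1.49) and 12 h (1.67). A second Cebpb probe set changed by 1.75 and 1.70 at these times. Differences between these genes were not tested. Cebpb encodes C/EBP beta, a dimer partner of ATF4 and CHOP that also serves inflammatory and metabolic genes. Its signal was 1190.4 and 1177.2 at 0 h, 2742.3 and 2941.3 at 3 h, 2865.8 and 3179.6 at 6 h, and 2732.1 and 3233.1 at 12 h. All arrays with BPA were more than 2 times those at 0 h, and the 3 later times overlapped. The gene rose by 1.26 ± 0.12 at 3 h (adjusted p = 9.03e-06), 1.34 ± 0.12 at 6 h (2.94e-06) and 1.32 ± 0.12 at 12 h (2.33e-06), with no step called after 3 h.

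Cebpg encodes C/EBP gamma, which lacks an activation domain and acts as a partner of other bZIP proteins, ATF4 among them. On the probe set with the highest signal it had 368.8 and 426.7 at 0 h, 600.7 and 580.8 at 3 h, 711 and 718.9 at 6 h, and 632.8 and 788.9 at 12 h. All later arrays lay above both 0 h arrays, with the 12 h pair spread around the 6 h pair. It rose by 0.84 ± 0.14 at 6 h (adjusted p = 0.000887) and 0.82 ± 0.14 at 12 h (0.000572). The 3 h change of 0.57 ± 0.14 (adjusted p = 0.0213) lost its call without any 1 of the 4 arrays at 3 h and 0 h (0.0531 to 0.182), after scaling to equal medians (0.0621), without the intensity trend (0.0687) and with the mean of all its probe sets (0.17, adjusted p = 0.589).

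Cebpd encodes C/EBP delta, an acute-phase and inflammatory C/EBP protein. Its signal was 471.7 and 618.3 at 0 h, 635.4 and 627.7 at 3 h, 651.6 and 736.3 at 6 h, and 842.1 and 773.2 at 12 h. The 0 h arrays stood far apart, and the second of them lay just below both 3 h arrays. The changes at 3 h (0.22 ± 0.15, adjusted p = 0.38) and 6 h (0.35 ± 0.15, adjusted p = 0.0965) did not pass. Both depended on the 0 h arrays: with 1 array left out the 3 h change was 0.03 to 0.42 and the 6 h change 0.16 to 0.55, called without the second 0 h array (adjusted p = 0.0457). At 12 h Cebpd rose by 0.57 ± 0.15 (adjusted p = 0.00754). The call did not hold without the first 0 h array (0.38, adjusted p = 0.113) or the first 12 h array (0.51, adjusted p = 0.0554).

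Trib3, Chac1 and Nupr1 are not bZIP factors. TRIB3 is a pseudokinase that is induced by ATF4 and CHOP, binds both and damps their activity. Its signal was 206.2 and 210.6 at 0 h, 675 and 685.3 at 3 h, 1952 and 1786 at 6 h, and 3075 and 3260.9 at 12 h. The pairs lay close together and climbed at each time with no overlap. Trib3 rose by 1.67 ± 0.11 at 3 h (adjusted p = 5.89e-07), 3.12 ± 0.11 at 6 h (1.37e-09) and 3.88 ± 0.11 at 12 h (2.08e-10), and its place among the 8675 genes was 62, 9 and 3 at 3, 6 and 12 h.

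Chac1 encodes an enzyme that cleaves glutathione and is induced through ATF4 and CHOP. Its signal was 304.8 and 279.7 at 0 h, 3162.2 and 3106.9 at 3 h, 5623.7 and 4381.4 at 6 h, and 4550.3 and 4172.7 at 12 h. Like Atf3, it was more than 10 times its 0 h signal on every later array. The first 6 h array stood above all others, and the 12 h pair overlapped the 6 h pair. Chac1 rose by 3.39 ± 0.13 at 3 h (adjusted p = 1.72e-09), 4.05 ± 0.13 at 6 h (2.74e-10) and 3.86 ± 0.13 at 12 h (4.02e-10), and its 6 h change was the highest of all genes tested.

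Nupr1 encodes a small nuclear protein induced by many stresses. Its signal was 415.9 and 437.3 at 0 h, 1060 and 1009 at 3 h, 1045.5 and 979 at 6 h, and 1451.4 and 1455.8 at 12 h. The 3 h and 6 h arrays overlapped, and both 12 h arrays lay above them. Nupr1 rose by 1.26 ± 0.12 at 3 h (adjusted p = 8.49e-06), 1.23 ± 0.12 at 6 h (6.61e-06) and 1.75 ± 0.12 at 12 h (1.7e-07).

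**Figure D2:**
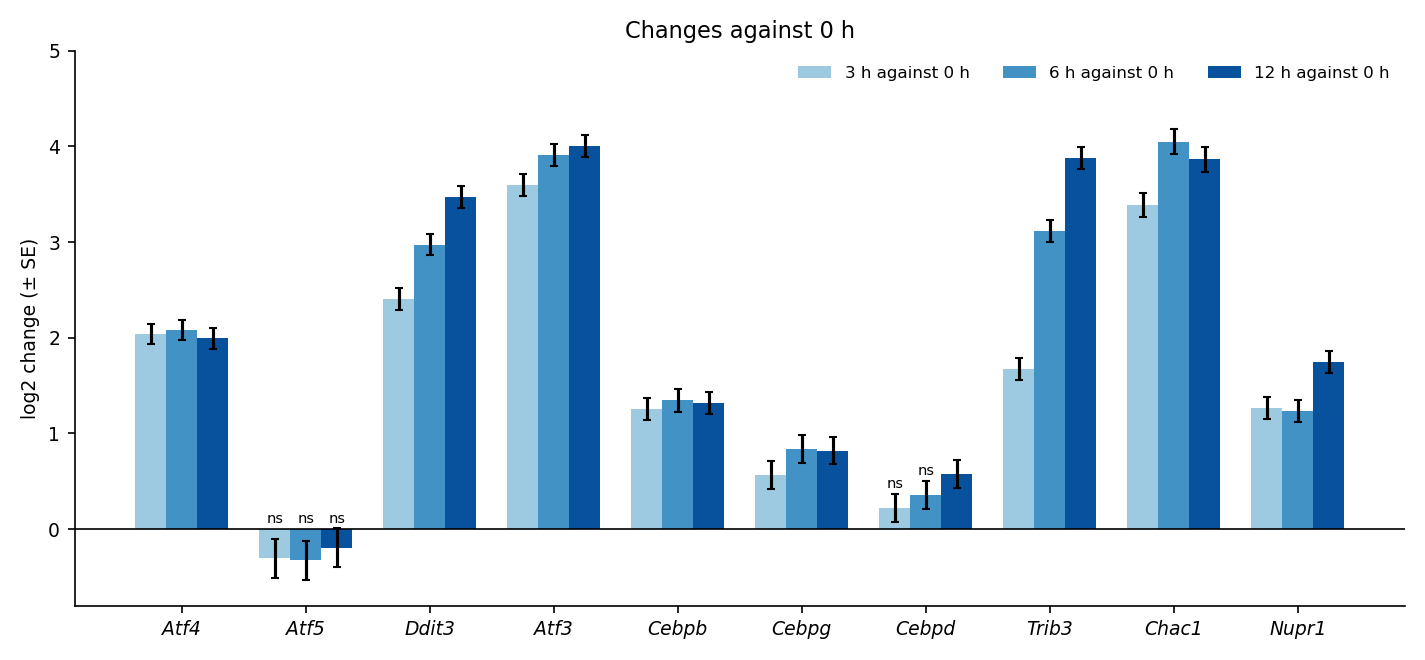
Log2 change against 0 h (vertical axis) of the 10 genes at 3, 6 and 12 h; bars are the limma estimates, whiskers 1 SE, and ns marks changes with an adjusted p of 0.05 or more. Atf3, Chac1, Trib3 and Ddit3 reach 3.47 to 4.003 at 12 h, Atf4, Nupr1 and Cebpb 1.32 to 1.99, Cebpg and Cebpd 0.82 and 0.57, and Atf5 is below 0 at each time and not called.

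Read by the probe set of highest signal, the members differed in when they moved. Set against the log2 change at 12 h, the change at 3 h came to 102% for Atf4, 95.1% for Cebpb, 89.9% for Atf3 and 87.7% for Chac1. It came to 72.1% for Nupr1, 69.2% for Ddit3, 68.9% for Cebpg, 43.1% for Trib3 and 38.9% for Cebpd, whose 3 h change did not pass. Atf5 had no called change to set it against. Differences between genes in these shares were not tested, and the shares depend on the probe set. On second probe sets the changes at 3 h and 12 h were 1.89 and 1.92 for Atf4 and 1.38 and 1.70 for Cebpb. They were 0.99 and 1.84 for Nupr1, 0.91 and 3.11 for Trib3 and 0.42 and 1.67 for Cebpg (1451639_at). The second Cebpd probe set had 0.40 and 0.36, and neither was called. The low Cebpg probe set 1425261_at had no called change.

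Tests of the steps between later times found 3 members called higher at 6 h over 3 h, 3 at 12 h over 6 h and 5 at 12 h over 3 h, with 0 called lower in each. Of all genes tested, 0.565% were called higher and 0.553% lower at 6 h over 3 h, and 0.922% and 3.85% at 12 h over 6 h. Over the longer span of 12 h over 3 h, 9.52% were called higher and 12.4% lower. After scaling to equal medians, 184 genes were higher and 200 lower at 12 h over 6 h (80 and 334 as reported) and 1414 and 769 at 12 h over 3 h (826 and 1075). The median change of the members was 0.20, 0.11 and 0.38 over these comparisons, beside 0.01, -0.02 and -0.01 over all genes.

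Trib3 rose in both later steps, by 1.45 ± 0.11 at 6 h over 3 h (adjusted p = 6.18e-05) and by 0.76 ± 0.11 at 12 h over 6 h (0.00276). Its calls held under each of the 18 alternatives tried. Ddit3 also rose in both, by 0.57 ± 0.11 (adjusted p = 0.0279) and 0.50 ± 0.11 (0.0242), yet the first call was lost in 9 alternatives and the second in 4. Its rise of 12 h over 3 h was called under all 18.

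Chac1 rose by 0.66 ± 0.13 at 6 h over 3 h (adjusted p = 0.0253), a call lost in 8 of 18 alternatives (0.0512 to 0.182), and its difference of 12 h over 6 h was -0.19 ± 0.13 (adjusted p = 0.442). Nupr1 rose by 0.52 ± 0.12 at 12 h over 6 h (adjusted p = 0.0225), a call lost in 5 alternatives (0.0677 to 0.111). The rises of 12 h over 3 h were 0.49 ± 0.12 for Nupr1 (adjusted p = 0.00917, lost without the second 3 h array, 0.0683) and 0.47 ± 0.13 for Chac1 (0.018, lost in 4 alternatives, 0.0783 to 0.113). Atf4, Atf5, Cebpb, Cebpg and Cebpd had no step called after 3 h, which does not show that their levels were equal. For 12 h over 3 h, Cebpg was called with the mean of its probe sets (0.74, adjusted p = 0.012) and Cebpd after scaling to equal medians (0.47, adjusted p = 0.0301).

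**Figure D3:**
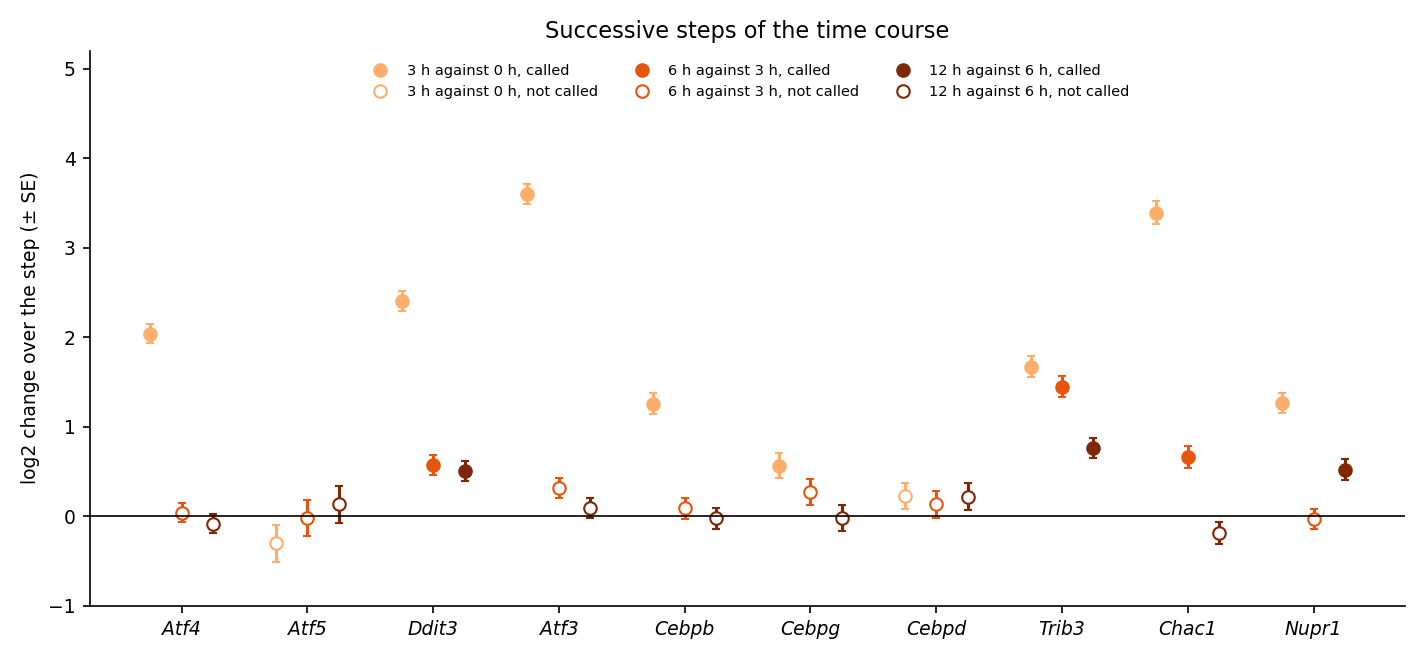
Log2 change over each successive step (vertical axis) of the 10 genes; points are the limma estimates, whiskers 1 SE, filled points passed the adjusted p of 0.05 and open points did not. Trib3 and Ddit3 are filled at each of the 3 steps, Chac1 at the first 2, Nupr1 at the first and the last, Atf4, Atf3, Cebpb and Cebpg at the first alone, and Atf5 and Cebpd at none.

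Where a gene had several probe sets, these were also tested one by one, over 15838 probe sets. Of the 17 tested probe sets of the members, 12 were called higher at 3 h, 13 at 6 h and 14 at 12 h, and 0 lower. Over all probe sets tested, 5.91%, 13% and 17% were called higher at these times. The probe set that did not pass the filter was an Atf4 one, 1439258_at, with 3.6 and 8.3 at 0 h, 30.2 and 43.5 at 3 h, 69.4 and 75.6 at 6 h, and 44.3 and 64.7 at 12 h. Its later arrays lay above both 0 h arrays, and no test was made on it.

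For Atf4, Cebpb and Nupr1 the tested probe sets were all called higher at 3, 6 and 12 h. Their courses after 3 h differed for Cebpb and Nupr1. The second Atf4 probe set, 1438992_x_at, rose by 1.92 ± 0.17 at 12 h (adjusted p = 6.55e-06), beside 1.99 on the main one. The second of Cebpb, 1427844_a_at, rose by 1.70 ± 0.17 at 12 h (adjusted p = 1.53e-05), beside 1.32. Its change was 1.38 at 3 h and 1.75 at 6 h, beside 1.26 and 1.34 on the main one. The second of Nupr1, 1419666_x_at, rose by 1.84 ± 0.13 at 12 h (adjusted p = 1.64e-06), beside 1.75. Here the change was 0.99 at 3 h and 1.26 at 6 h, beside 1.26 and 1.23 on the main one. Steps between the later times were not tested on single probe sets. IDs ending in _x_at mark probe sets that can also bind other transcripts.

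Trib3 showed the same climb at a smaller size on 1456225_x_at, with 204.1 and 236.9 at 0 h, 448.6 and 396 at 3 h, 1118.8 and 1300.9 at 6 h, and 1829.1 and 2092.4 at 12 h. This probe set rose by 0.91 ± 0.14 at 3 h (adjusted p = 0.00208) and 3.11 ± 0.14 at 12 h (6.23e-08), beside 1.67 and 3.88 on the main one.

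The 3 probe sets of Cebpg, annotated to the same transcript record, disagreed. On 1451639_at the signal was 127.7 and 157.9 at 0 h, 197.2 and 187.8 at 3 h, 435.1 and 391.7 at 6 h, and 504.1 and 439.5 at 12 h. That is a rise of 1.49 ± 0.18 at 6 h (adjusted p = 0.000123) and 1.67 ± 0.18 at 12 h (2.68e-05), beside 0.84 and 0.82 on the main probe set. Its 3 h change of 0.42 ± 0.18 did not pass (adjusted p = 0.179). On 1425261_at all 8 signals lay between 25.4 and 74.7, and the 0 h pair overlapped the pair of each later time, while the 12 h pair (74.7 and 54.7) lay above those at 3 h and 6 h. No change was called on it, and the 12 h change was 0.26 ± 0.48 (adjusted p = 0.728). The second Cebpd probe set, 1456605_at, was also low, between 63.3 and 113.6, with a 12 h change of 0.36 ± 0.30 (adjusted p = 0.404).

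**Figure D4:**
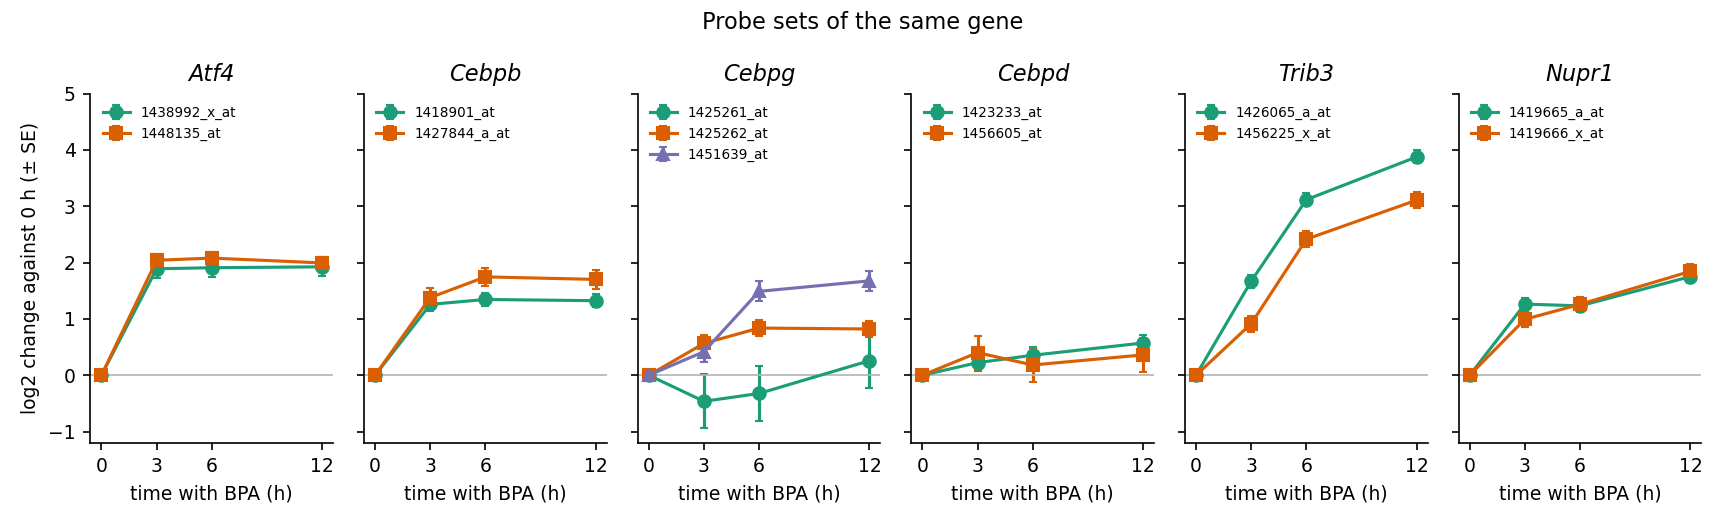
Log2 change against 0 h (vertical axis) over hours of BPA for each tested probe set of the 6 genes with more than 1; whiskers are 1 SE. The pair of Atf4 runs close together, and those of Cebpb and Nupr1 rise but differ in course after 3 h. The 2 of Trib3 climb in parallel to 3.88 and 3.11, and the 3 of Cebpg end at 1.67, 0.82 and 0.26.

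Time courses were compared by the root mean square difference over the 8 arrays of log2 values centred on each gene's own 0 h mean. Among the members, the smallest differences were for Atf3 and Chac1 (0.186), Cebpb and Nupr1 (0.242), Cebpg and Cebpd (0.344) and Ddit3 and Trib3 (0.438). The difference depends on the size of the changes, so this order does not rank likeness of course. Cebpg and Cebpd, which changed little, correlated at 0.801 over the 8 arrays. Atf3 and Atf4 correlated at 0.99 with a difference of 1.571. Of the non-members, Gadd45g was nearest to both Atf3 (0.277) and Chac1 (0.287). Fos (0.593 and 0.562) and Klf10 (0.765 and 0.709) followed at larger differences. The changes of Fos and Klf10 against 0 h were 3.94 and 3.51 at 6 h and 2.84 and 2.60 at 12 h. Fosl1 was nearest to Atf4 (0.1), followed by Abhd2 and Arid5a. Gadd45a was nearest to Ddit3 (0.131), followed by Plk3 and Rel, and Plk3 was nearest to Trib3 (0.257), followed by Socs2 and Vegfa.

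Zfp869 was nearest to Cebpb (0.09), followed by Zfp930 and Cdkn2b, and Trit1 was nearest to Nupr1 (0.099), followed by Eif4a2 and Egf. Timm44 was nearest to Cebpg (0.084), followed by Usp24 and Tada2a. Bysl was nearest to Cebpd (0.058), followed by Ppp1r11 and Lmbrd1, and Cyb5r4 was nearest to Atf5 (0.097), followed by Ldhb and Hdgf. Small changes give small differences, so these distances are not comparable between members, and all genes share the same 8 arrays.

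Lists of genes around the members were read in the same fit, and their counts stand beside the shares of all genes given above, at 12 h 20.9% higher and 17.5% lower. Of 40 listed target genes of ATF4 and CHOP, 34 were on the array and 32 were tested. At 3 h 10 rose and 1 fell, at 6 h 20 rose and 1 fell, and at 12 h 23 rose and 1 fell, with median changes of 0.23, 0.72 and 1.11. Those medians, beside 0.06, 0.07 and 0.06 over all genes, grew with time. Those named by size at 12 h were Vegfa, the vascular growth factor gene (3.26 ± 0.16), Slc7a11, the cystine transporter (3.12 ± 0.37), Asns, asparagine synthetase (2.68 ± 0.11), and Ppp1r15a, the phosphatase subunit GADD34 that reverses eIF2 phosphorylation (2.67 ± 0.16). Against the list, Bcl2l11, the gene of the pro-apoptotic protein BIM, fell by 1.13 ± 0.16 (adjusted p = 9.21e-05), and with the mean of all its probe sets the change was -0.41 (adjusted p = 0.0612).

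The eIF2 kinases and subunits of eIF2, of its exchange factor and of its phosphatases were read next. Of 16 listed genes 14 were on the array, without Eif2s1, the alpha subunit of eIF2, and Eif2b3. Of 14 tested, 1 rose and 0 fell at 3 h, 4 rose and 1 fell at 6 h, and 6 rose and 1 fell at 12 h, with a 12 h median of 0.37. After Ppp1r15a the named rises at 12 h were Eif2s2, the beta subunit of eIF2 (0.85 ± 0.11), Nck1, an adaptor (0.79 ± 0.17; 0.07 with the mean of all its probe sets, adjusted p = 0.839), and Eif2b4, a subunit of the exchange factor (0.64 ± 0.13). Eif2ak2, which encodes PKR, fell by 0.62 ± 0.16 (adjusted p = 0.00825), and this call was lost in 3 alternatives (0.0525 to 0.0657). The other kinases are named after their values were seen. Eif2ak1, which encodes HRI, rose by 0.44 ± 0.14 (adjusted p = 0.0237), a call lost in 5 alternatives, with a change of 0.06 without the first 12 h array. Neither Eif2ak3, which encodes PERK (-0.35 ± 0.19, adjusted p = 0.166), nor Eif2ak4, which encodes GCN2 (-0.88 ± 0.37, adjusted p = 0.0797), passed.

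Genes of the IRE1 and ATF6 branches, the other arms of the unfolded protein response, were called in both directions, at 12 h in shares near those of all genes. Of 20 tested, 1 rose and 1 fell at 3 h, 2 rose and 4 fell at 6 h, and 4 rose and 5 fell at 12 h, with a 12 h median of -0.12. Hspa5, which encodes the chaperone BiP, rose by 1.40 ± 0.13 at 12 h, and Xbp1, the factor spliced by IRE1, by 0.91 ± 0.13. Ern1, which encodes IRE1 (0.75 ± 0.25, adjusted p = 0.0317), and Dnajb9, a chaperone partner of BiP (0.57 ± 0.18, adjusted p = 0.0204), were called higher and each lost the call in 4 alternatives. Mbtps1, the protease that activates ATF6, fell by 0.97 ± 0.13 (-0.42 and adjusted p = 0.0683 with the mean of all its probe sets), and Dnajc3, an inhibitor of PERK, fell by 0.87 ± 0.21 (lost without the second 0 h array, 0.0654, or the first 12 h array, 0.061).

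Of 17 other tested ATF, CREB and C/EBP family genes, 3 rose and 1 fell at 3 h, 5 rose and 1 fell at 6 h, and 5 rose and 2 fell at 12 h, with a 12 h median of -0.01. Nfil3, a bZIP repressor, rose by 2.35 ± 0.13 at 12 h and Jdp2, a repressor related to ATF3, by 1.12 ± 0.11. Atf7 (1.33 ± 0.33) and Creb1 (0.78 ± 0.22) were also called higher, with calls lost for Atf7 with the mean of its probe sets (0.0752) or without the first 0 h array (0.0679), and for Creb1 without the second 0 h (0.136) or second 12 h array (0.0974). Creb3 fell by 0.42 ± 0.10, and Atf2 fell by 0.70 ± 0.15 (-0.29 and adjusted p = 0.113 with the mean of all its probe sets).

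The AP-1, MAF and NRF proteins are bZIP factors that can pair with ATF4 or ATF3. Of 15 tested, 10 rose and 0 fell at 3 h, 9 rose and 1 fell at 6 h, and 10 rose and 2 fell at 12 h, with medians of 0.74, 0.99 and 1.19. Named by size at 12 h were Fos (2.84 ± 0.12), Maff (2.72 ± 0.14) and Junb (2.28 ± 0.23), while the repressors Bach2 and Bach1 fell by 2.57 ± 0.40 and 1.17 ± 0.13. Bach2 averaged 23.65 at 12 h against 166.1 at 0 h, so the size of its fall rests on low signals and depends on the offset. Among 4 tested relatives of Trib3, Chac1 and Nupr1, Ggct, another enzyme of glutathione breakdown, rose by 1.58 ± 0.15 at 12 h, and Trib1 was called lower (adjusted p = 0.000276), with signals averaging 7.65 at 12 h against 96.4 at 0 h. The first of these is below the offset of 7.9, so no size is given for its fall. The lists overlap: Ppp1r15a, Jdp2, Dnajb9, Atf6 and Atf6b each stand in 2 of them.

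**Figure D5:**
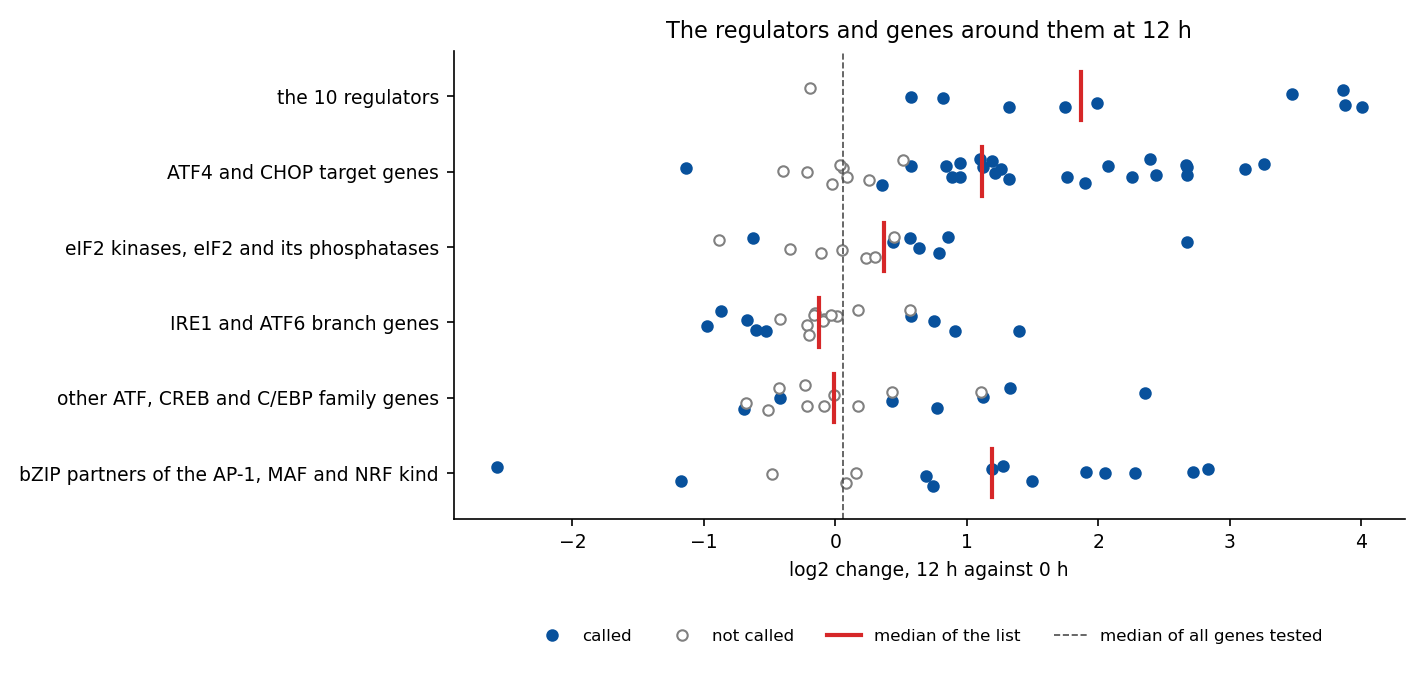
Log2 change of 12 h against 0 h (horizontal axis) for the 10 regulators and the tested genes of 5 lists, 1 point per gene, filled where called and shifted up or down at random for legibility. Red bars are list medians (1.87 for the regulators, 1.11 for the target genes and 1.19 for the bZIP partners, against -0.12 and -0.01 for the IRE1 and ATF6 list and the other family genes) and the dashed line is the median of all genes tested, 0.06.

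Across the whole series, each array had been scaled to the same trimmed mean, and arrays of the same time correlated at 0.974 to 0.984 on the log2 scale. After scaling to equal medians instead, the median change of all genes was -0.07 rather than 0.06 at 3 h and 0.11 rather than -0.01 at 12 h over 3 h, and the rises of the members against 0 h kept their calls except Cebpg at 3 h. The ratio of 3' to 5' signal was 0.713 to 0.82 for the Gapdh controls and 1.11 to 1.19 for the actin controls. Of 13 Sertoli cell markers on the array, 9 passed the filter, and Amh, Fshr, Dhh and Cldn11 did not, with no signal above 75.1. The 13 summed to 10670 to 10990 at 0 h, 9819 to 10550 at 3 h, 8194 to 8198 at 6 h and 6064 to 7313 at 12 h, and 2 of the 9 rose (Sox9, Gata4) and 2 fell (Clu, Inhbb) at 12 h. Most of the sum was Clu, which averaged 3409 at 12 h against 7650 at 0 h. With the mean of all probe sets the 12 h calls of Sox9 (0.45, adjusted p = 0.294) and Inhbb (-0.79, adjusted p = 0.0609) were lost, and that of Gata4 was lost in 3 alternatives (0.0518 to 0.205). The 7 peritubular and fibroblast markers summed to 9664 to 9751 at 0 h, 7366 to 7558 at 3 h, 5699 to 6218 at 6 h and 4474 to 5307 at 12 h, most of it Dcn, and 5 of the 7 passed the filter. Leydig cell markers passed in 1 of 5 cases (Star), germ cell markers in 2 of 9 (Kit and Prm1) and macrophage markers in 3 of 6, and their sums at 12 h were 486.5 to 615.7, 437 to 504.9 and 630 to 670.8, against 509 to 511.5, 731 to 759.8 and 586.6 to 654.5 at 0 h. The part of these marker changes in the results above was not tested.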

How the data were processed

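Each of 8 one-colour arrays measured RNA of 1 sample, grouped by the time and number in its title. The authors deposited 1 intensity per probe set on a linear scale. Their software and summary method are not given here. The values show that they scaled each array: the mean without the top and bottom 2% of probe sets was 500.16 to 500.18 throughout, so an overall change in RNA amount would be hidden. Of 22690 probe sets, 64 were controls and left out, 20380 carried 1 symbol in the platform annotation, 691 several and 1555 none. Symbols were updated through Entrez identifiers to RefSeq (GRCm38.p6) for 20351 and kept for 29.

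The probe set of highest mean log2 signal stood for a gene. Intensities became log2(signal + 7.9), an offset equal to the 10th percentile of all values, and genes were tested above the 30th percentile of mean log2 signal. The limma package (version 3.58.1, R 4.3.3) fitted 1 mean per time over all 8 arrays with lmFit and eBayes (trend with intensity, 4 residual and 9 prior degrees of freedom). Benjamini-Hochberg adjustment ran over all genes tested, and a gene was called at an adjusted p under 0.05. A second fit took probe sets one by one. The scripts were tested on simulated data. Array numbers were not treated as pairs in the main fit, and the labels do not say whether they pair the samples. Deviations of same-numbered arrays correlated at -0.011 to 0.122 between times, which cannot show that pairing is absent. No arrays were duplicates.

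Alternatives covered the normalization (quantile, or the same median), the offset (1.98 or 31.6), the filter (none, or the 50th percentile), eBayes with no trend, separate fits of the 2 groups compared, the array number as a block, the mean of all probe sets, and each array left out. All 10 members are named whatever their result. Each list gives up to 4 called genes by size at 12 h plus those called against most of the list, and each member gives its 3 nearest non-members; Eif2ak1, Eif2ak3, Eif2ak4 and the cell markers fall outside this rule. The members and lists were chosen with earlier results of these data known.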

Additional observations from a re-analysis of the deposited data

How the results depend on the processing

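Against 0 h, 7 to 8 members were called at 3 h, 8 to 9 at 6 h and 8 to 9 at 12 h over all alternatives, and 11 to 12, 13 to 14 and 13 to 15 of their probe sets. The counts between later times were less stable. Members called at 12 h over 3 h were 6 with equal medians (Cebpd gained), 6 with the mean of all probe sets (Cebpg gained), 3 without the intensity trend and 3 to 5 when 1 array was left out. At 12 h over 6 h they were 1 without the trend, 1 with only the groups compared and 1 to 3 without 1 array, and at 6 h over 3 h 1 without the filter, 1 without the trend, 1 with only the groups compared and 1 to 3 without 1 array. The replicate block changed no call of a member against 0 h (8, 8 and 9 called).

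Changes that turned direction were all uncalled. With arrays scaled to the same median these were Atf4 (0.0773 at 12 h over 3 h, 0.0194 at 12 h over 6 h), Cebpb (0.0829) and Cebpg (0.0876) at 12 h over 6 h. With the mean of all probe sets they were Atf4 at 12 h over 3 h (0.15), Cebpg at 12 h over 6 h (0.25), Cebpd (-0.0436) and Nupr1 (0.12) at 6 h over 3 h. With quantile normalization it was Cebpg at 12 h over 6 h (0.0157). Leaving out 1 array gave -0.12 to 0.0237 (Atf4, 12 h over 3 h), -0.041 to 0.12 (Atf4, 6 h over 3 h), -0.0558 to 0.19 (Cebpb, 12 h over 3 h), -0.14 to 0.10 (Cebpb, 12 h over 6 h), -0.17 to 0.14 (Cebpg, 12 h over 6 h) and -0.0785 to 0.0156 (Nupr1, 6 h over 3 h). For Atf5 it gave -0.45 to 0.0612 (12 h over 0 h), -0.14 to 0.37 (12 h over 3 h), -0.12 to 0.39 (12 h over 6 h) and -0.20 to 0.16 (6 h over 3 h). The cause was not tested.

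Genes called over the whole array were 1048 at 3 h (611 without the trend, 454 to 1266 without 1 array), 2299 at 6 h (1377 to 2330), 1901 at 12 h over 3 h (1016 to 2158), 414 at 12 h over 6 h (274 without the filter, 114 without the trend, 173 with only the groups compared, 703 with the block, 154 to 433 without 1 array) and 97 at 6 h over 3 h (56, 6, 61, 226 and 30 to 130 in the same order). Signal over background was not used here, so low probe sets such as those of Cebpg and Cebpd rest on the filter alone.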

Other observations

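The C/EBP-ATF response element was also counted in promoters of the listed target genes, tested or not, and of genes grouped by their change at 12 h. TGATGNAA was in the 250 bases before the start of 7 of 30 target genes with a RefSeq promoter (23.3%), namely Asns, Fgf21, Herpud1, Jdp2, Pycr1, Slc7a11 and Vldlr. Of these, Asns, Herpud1, Jdp2 and Slc7a11 were called higher at 12 h. Vldlr was not called (-0.03, adjusted p = 0.905), and Fgf21 and Pycr1 were not among the genes tested. Among all genes tested it was in 162 of 7098 (2.28%), among those called at least 2-fold higher at 12 h in 17 of 400 (4.25%) and among those called at least 2-fold lower in 5 of 372 (1.34%). The exact letters of the members, TGATGCAA, chosen after the matches were seen, were in 10 of the 400 (2.5%), 2 of the 372 (0.538%) and 52 of the 7098 (0.733%). Atf3, Chac1 and Nupr1, which gave these letters, rose at least 2-fold at 12 h and are themselves counted among the 10 and the 17. The listed targets Asns, Herpud1, Jdp2 and Slc7a11 are also among the 17. Part of these shares was therefore set by the choice of genes and letters. The list names targets of ATF4 and CHOP, and ATF4 acts through such elements, so its share is no independent result. No test was made on these shares.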
